A study of Mus musculus with 12 samples.

Results

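The data cover the last part of meiotic maturation in oocytes of Cnot6l-/- mice (KO): polysome-bound RNA from 2 KO libraries at metaphase II (MII) set against 2 KO libraries at metaphase I (MI). Genes were taken by a rule that did not look at the change: all 11667 genes whose mean was at least 1 FPKM (fragments per kilobase of transcript, scaled to library size) over the 12 libraries of the series, of 23235 genes in the deposited table. The series holds 2 libraries each of KO and of wild-type (WT) oocytes from 3 stages: the germinal vesicle or prophase-arrested stage (GV), then MI, then MII. All animals were on the C57BL/6 background and were at postnatal day 21. GV oocytes were taken 48 h after PMSG, a hormone that makes follicles grow. MI oocytes had then matured in culture for 8 h and MII oocytes for 16 h. KO is a deletion of Cnot6l in the animal, and WT animals carry none. The deleted stretch of Cnot6l, the number of oocytes or animals in a library, and whether the 2 libraries of a group came from separate animals are not given in the labels, so p-values measure the spread between these libraries, which may be technical.

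CNOT6L is a nuclease subunit of the CCR4-NOT complex, which shortens the poly(A) tails of messenger RNAs. A fully grown oocyte does not transcribe, so maturation to MII runs on stored maternal transcripts, which are either given longer tails and translated or given shorter tails and destroyed. Lengthening depends on the cytoplasmic polyadenylation element (CPE), a short U-rich sequence near the 3′ end that the protein CPEB binds, together with the AAUAAA or AUUAAA hexamer. RNA on polysomes is RNA that ribosomes are translating, so its level follows both how much transcript is left and how much of it is loaded. Total RNA of these oocytes was not analysed here, and loss of a transcript and its release from ribosomes cannot be told apart, as fewer oocytes and less RNA per oocyte cannot.

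The 3′ ends of several transcripts named in the results are given first, because the increases from MI to MII in KO oocytes were counted against this element. Each is 30 bases of the mm9 genome (transcript strand, DNA letters), found in the longest 3′ untranslated region of the gene in GENCODE M1. The search was for TTTTAT or TTTTAAT on the transcript strand in the last 100 bases, and for AATAAA or ATTAAA in the last 40 bases. Capitals mark the CPE in the first 5 and the hexamer in the last 5, where no CPE was found.
Tcl1, chr12:106455007-106455036, minus strand: gaatgtgtgggaTTTTATgtggttctattt
Obox2, chr7:15983827-15983856, plus strand: taggtcttaattTTTTATtgttagagtata
H1foo, chr6:115900175-115900204, plus strand: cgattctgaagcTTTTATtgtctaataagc
Bcl2l10, chr9:75199387-75199416, plus strand: ccttaatacatTTTTAATaacttcaaattc
Gdf9, chr11:53251356-53251385, plus strand: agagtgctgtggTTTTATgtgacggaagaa
Dppa3, chr6:122580260-122580289, plus strand: ccagaaatttgtAATAAAagcatttttgtt
Pttg1, chr11:43233773-43233802, minus strand: gtatgttgtattAATAAAgcatttgtgcat
Eef2, chr10:80645207-80645236, plus strand: aatcattggagtAATAAActacagtggttg
Rps26, chr10:128061597-128061626, minus strand: ttaccctggaaaAATAAAatggaagttgta
Arl2, chr19:6134388-6134417, minus strand: tccagcagtgagAATAAAgcactcttcacc

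Cnot6l itself was read at 16.35 and 16.01 FPKM in KO MII libraries, against 23.49 and 16.51 FPKM in KO MI libraries. In WT it stood at 65.22 and 49.39 FPKM at MII and at 68.53 and 47.88 FPKM at MI. All 4 KO libraries were thus below all 4 WT libraries of these stages, and KO transcripts of the gene were still present. Between KO MII and KO MI the libraries did not separate beyond their spread (log2 change −0.27 ± 0.57 SE, limma adjusted p = 0.834). The deposited FPKM of the 12 libraries summed to between 884142 and 1663871. The 2 KO MII libraries summed to 1211628 and 1213953, against 1635234 and 1663871 in KO MI libraries. Genes above 0 numbered 12112 and 11936 in KO MII libraries, against 13277 and 13319 in KO MI libraries. The files hold no read totals. From steps between the lowest values, 1 read was worth 1.096 to 1.19 times as much FPKM in KO MII as in KO MI libraries. Depth was therefore close if the values were scaled by depth alone. Log2 values of replicate libraries correlated across genes at r = 0.92 for KO MII and 0.949 for KO MI, and the median difference between replicates was 0.414 and 0.309 on the log2 scale; genes are not independent replicates. The 10 oocyte markers summed to 61775 and 61279.9 FPKM in KO MII libraries, against 65748.2 and 68697.2 FPKM in KO MI libraries, so the oocyte label was met.

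From MI to MII, most polysome-bound transcripts of KO oocytes had lower FPKM, and very few were called higher. Of the 11667 genes, 838 fell (7.18%) and 19 rose (0.163%) at a limma adjusted p below 0.05 on log2(FPKM + 1), a scale that understates the change of low genes. The median over all genes was −0.59, and 9474 genes had a negative and 2125 a positive change. Because FPKM is a share of its own library, this downward shift depends on the scaling: when every library was scaled to the same median ratio, the median over all genes was −0.08, 79 genes fell (0.677%) and 98 rose (0.84%). All 19 increases and 79 of the 838 decreases passed in the same direction on both scales, and 3 genes that fell as deposited rose after scaling. Changes are therefore given on both scales, and a decrease smaller than the shift of the whole library is a decrease in FPKM only.

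**Figure D1:**
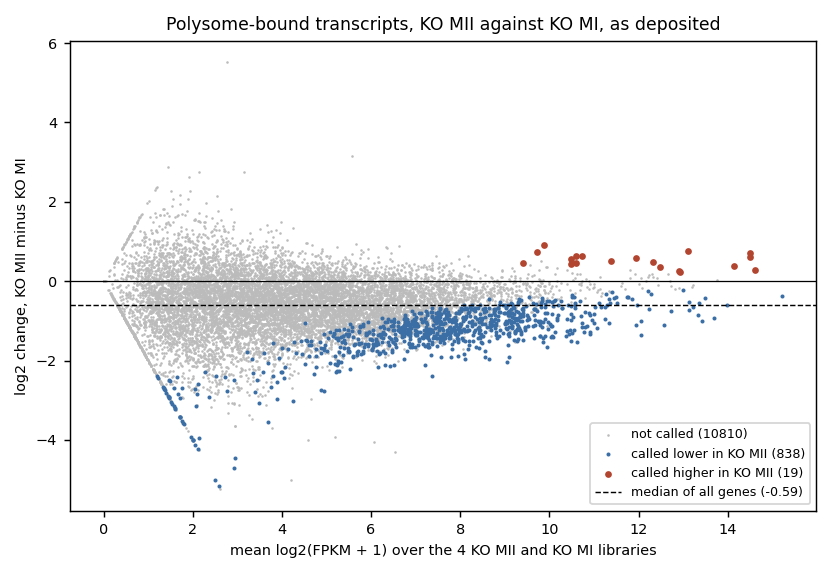
Log2 change from KO MI to KO MII (vertical axis) against the mean log2(FPKM + 1) over the 4 KO libraries (horizontal axis); each point is a gene, red called higher, blue called lower, grey not called. The cloud is centred at the dashed median of −0.59, and the 19 increases lie at the highest levels.

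Detection depended on level. Above 1000 FPKM (mean of the 4 KO libraries) 51.3% of 199 genes fell and 17 rose, whereas at 10 to 30 FPKM 1.47% of 2654 genes fell and none rose. The median change was close in both classes, at −0.41 and −0.61. The test borrows the lower spread of abundant genes from a trend of variance with level; without this trend 0 genes rose and 3 fell, while the median and the values of each library stay as given. Leaving out a KO MI or KO MII library brought the decreases to between 198 and 377. With 1 WT MII library left out they reached up to 1563, since the spread is estimated over all 12 libraries.

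The transcripts that rose were already abundant at MI, and many encode proteins made mainly by oocytes. The 19 genes were Tcl1b4, Tcl1, Tcl1b3, Dppa3, Ndufa4, Swi5, Pttg1, Omt2b, Dpy30, Tcl1b1, Obox2, Sub1, Omt2a, Snrnp27, Bcl2l10, AU022751, H1foo, Oosp1 and Btg4. Their log2 changes ran from 0.23 to 0.92, and the lowest mean in KO MI was 574.5 FPKM. KO MII libraries lay above KO MI libraries for all 19 (5.67% of all tested genes did so). This follows largely from picking the genes on these same libraries. Of the 50 tested genes on the list of oocyte-specific factors 9 rose, against 0.163% of all tested genes. Increases were called only above 300 FPKM (mean of the 4 KO libraries), and the list was not set against genes of the same level.

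Dppa3, a maternal protein that guards DNA methylation in the zygote, had 30231.9 and 29355.16 FPKM in KO MII libraries, against 17924.45 and 18744.88 FPKM in KO MI libraries. The log2 change was 0.70 ± 0.05 (SE, adjusted p = 2.1e-05), and 1.28 after median scaling. Pttg1, which encodes securin, the inhibitor of separase, had 28479.56 and 28735.34 FPKM in KO MII libraries, against 18959.53 and 18863.5 FPKM in KO MI libraries (0.60 ± 0.04, adjusted p = 1.7e-05). Replicates of both genes lay close together and the stages were far apart. Tcl1, a co-activator of the kinase AKT, stood at 11472.72 and 11419.78 FPKM in KO MII libraries and at 6713.38 and 6819.13 FPKM in KO MI libraries (0.76 ± 0.04, adjusted p = 5.5e-06). Its relatives on the same stretch of chromosome 12 also rose on the log2 scale. The changes were 0.52 for Tcl1b1 (adjusted p = 0.0098), 0.73 for Tcl1b3 (0.0465) and 0.92 for Tcl1b4 (0.0251). Of 25 alternative settings, 20 kept the call of Tcl1b1, 14 that of Tcl1b3 and 20 that of Tcl1b4. Leaving out a KO MI library moved Tcl1b4 to 0.62 or 1.22. The Tcl1b copies are near-identical, as are Omt2a and Omt2b, and how reads were split among them is not given in the sources used here, so values of single copies are uncertain.

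Other increases were smaller. H1foo, the linker histone of oocytes, averaged 27510 FPKM in KO MII and 22660 FPKM in KO MI (0.28, adjusted p = 0.00449). Bcl2l10, a relative of the survival factor BCL2, averaged 20730 FPKM in KO MII and 15840 FPKM in KO MI (0.39, adjusted p = 3.8e-05). Obox2, an oocyte homeobox gene, averaged 6120 FPKM in KO MII and 4351 FPKM in KO MI (0.49, adjusted p = 0.00063). Ndufa4, a subunit of the respiratory chain, was the exception in a group whose other called members all fell: it had 1860.84 and 2015.66 FPKM in KO MII libraries, against 1293.99 and 1187.4 FPKM in KO MI libraries (0.64, adjusted p = 0.00311). Swi5 rose by 0.63 (adjusted p = 0.00555). Dpy30, a subunit of histone H3K4 methyltransferases, rose by 0.57 (adjusted p = 0.034), and 17 of 25 alternative settings kept its call.

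Several of these transcripts climbed over all 3 stages in KO, whereas in WT they reached their highest mean at MI. The median of the 19 gene means was 1534 FPKM in KO GV, 3207 in KO MI and 4800 in KO MII. In WT it was 1318 FPKM at GV, 3319 at MI and 1945 at MII. From MI to MII in WT 13 of the 19 fell (16.4% of all tested genes did) and 3 rose (5.68%), while 18 of the 19 had risen from GV to MI in WT (3.06%). The KO change from MI to MII was above the WT change for 15 of the 19 by the interaction test and below it for 1, against 2.81% and 3.71% of all tested genes. After median scaling it was above the WT change for 16. The 19 genes were picked on the KO change, which is part of this difference, so a high share is partly built in. For Dppa3, WT MII libraries held 10317.01 and 9525.95 FPKM, against 18125.04 and 19234.1 FPKM in WT MI libraries, and the KO change exceeded the WT change by 1.61 on the log2 scale (adjusted p = 5.4e-07). As deposited, the KO and WT libraries of Dppa3 overlapped at MI and did not at MII; the overlap at MI is lost when KO MI is divided by its scaling factors of 1.54 and 1.56 and WT MI by 0.787 and 0.797. Pttg1 differed between KO and WT by 1.02 (adjusted p = 1.6e-06), Tcl1 by 1.32 (5.4e-07) and Btg4 by 0.63 (0.00034).

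**Figure D2:**
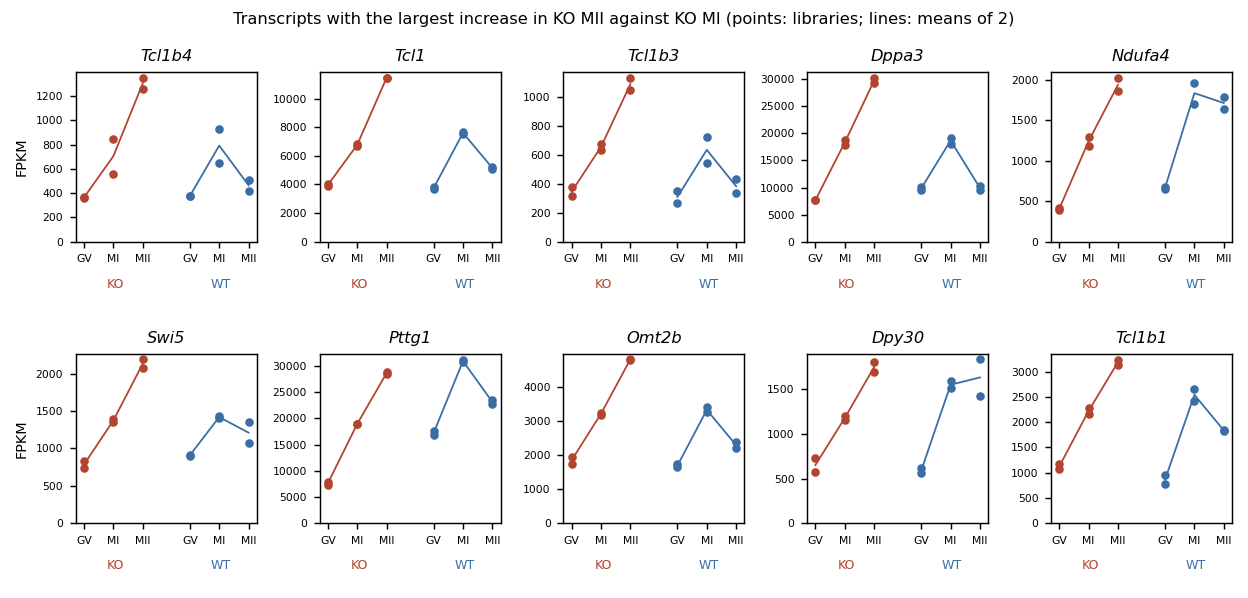
FPKM of the 10 genes with the largest increase in KO MII over KO MI; each point is a library, lines join the means of 2, red is KO and blue is WT, each from GV to MII. In KO the MII points are the highest of each panel's red series, for example 30231.9 and 29355.16 FPKM for Dppa3, while for 8 of the panels' genes, all but Ndufa4 and Dpy30, the WT means fall after MI by more than 0.2 on the log2 scale.

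Among the lists, those of ribosomal proteins and oxidative phosphorylation had the lowest medians, although most of the 838 decreases lay outside them. Of 79 cytosolic ribosomal protein genes 45 fell (57.0%, against 7.18% of all tested genes) and none rose, with a median change of −1.03 against −0.59 over all genes. Calls depend on level: 41.2% of tested genes at 300 to 1000 FPKM fell, and 51.3% above 1000 FPKM, with medians of −0.64 and −0.41. The list was not set against genes of the same level. After median scaling 8 of the 79 fell and none rose, with a median of −0.46 against −0.08. Rpl35a, a protein of the large ribosomal subunit, had 280.94 and 243.18 FPKM in KO MII libraries, against 1081.21 and 1075.82 FPKM in KO MI libraries (−2.04 ± 0.20, adjusted p = 0.00022, and −1.46 after scaling). Rps26, of the small subunit, stood at 226.14 and 165.89 FPKM in KO MII libraries, against 790.87 and 667.71 FPKM in KO MI libraries (−1.90, adjusted p = 0.00163). Neither gene's stages overlapped, and replicates of Rps26 differed more than those of Rpl35a. The whole ribosomal protein list summed to 31580.4 and 32018.6 FPKM in KO MII libraries, against 58947.8 and 59486.4 FPKM in KO MI libraries. Of 76 mitochondrial ribosomal protein genes 21 fell and none rose (median −0.95; 1 fell after scaling). Among 59 translation factors 12 fell (median −0.65; 2 fell and 1 rose after scaling), led by the elongation factor Eef2, which had 18.58 and 14.95 FPKM in KO MII libraries, against 78.3 and 89.47 FPKM in KO MI libraries (−2.26, adjusted p = 0.0018, and −1.68 after scaling). Eef1a1, which brings aminoacyl-tRNA to the ribosome, fell by 1.44 (adjusted p = 0.00044). Of 21 aminoacyl-tRNA synthetases 2 fell (1 after scaling), among them the arginyl-tRNA synthetase Rars (−2.10, adjusted p = 0.00371).

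Oxidative phosphorylation followed the same course. Of 79 nuclear-encoded subunits 36 fell (45.6%, against 7.18% of all tested genes) and 1, Ndufa4, rose. Their median was −1.01, against −0.59 over all genes. After scaling 5 fell and 1 rose, with a median of −0.43 against −0.08. Ndufb6, of complex I, had 333.32 and 279.57 FPKM in KO MII libraries, against 865.47 and 1001.85 FPKM in KO MI libraries (−1.61, adjusted p = 0.00036). Ndufs7, also of complex I, fell by 1.75 (adjusted p = 0.00538) but did not pass after scaling (adjusted p = 0.102). Of 41 proteasome genes 17 fell (41.5%) and none rose (median −0.84), and after scaling none fell and 1 rose (median −0.26). Of 32 chaperones 14 fell (43.8%, median −0.83), 1 after scaling. Calls depend on level: 21.4% of all tested genes at 100 to 300 FPKM (mean of the 4 KO libraries) fell, and 41.2% at 300 to 1000 FPKM. These lists were not set against genes of the same level. Psmd6 of the proteasome lid fell by 1.44 (adjusted p = 0.00713) and Cct3 of the cytosolic chaperonin by 1.35 (adjusted p = 0.0042), and both lost their call after scaling.

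**Figure D3:**
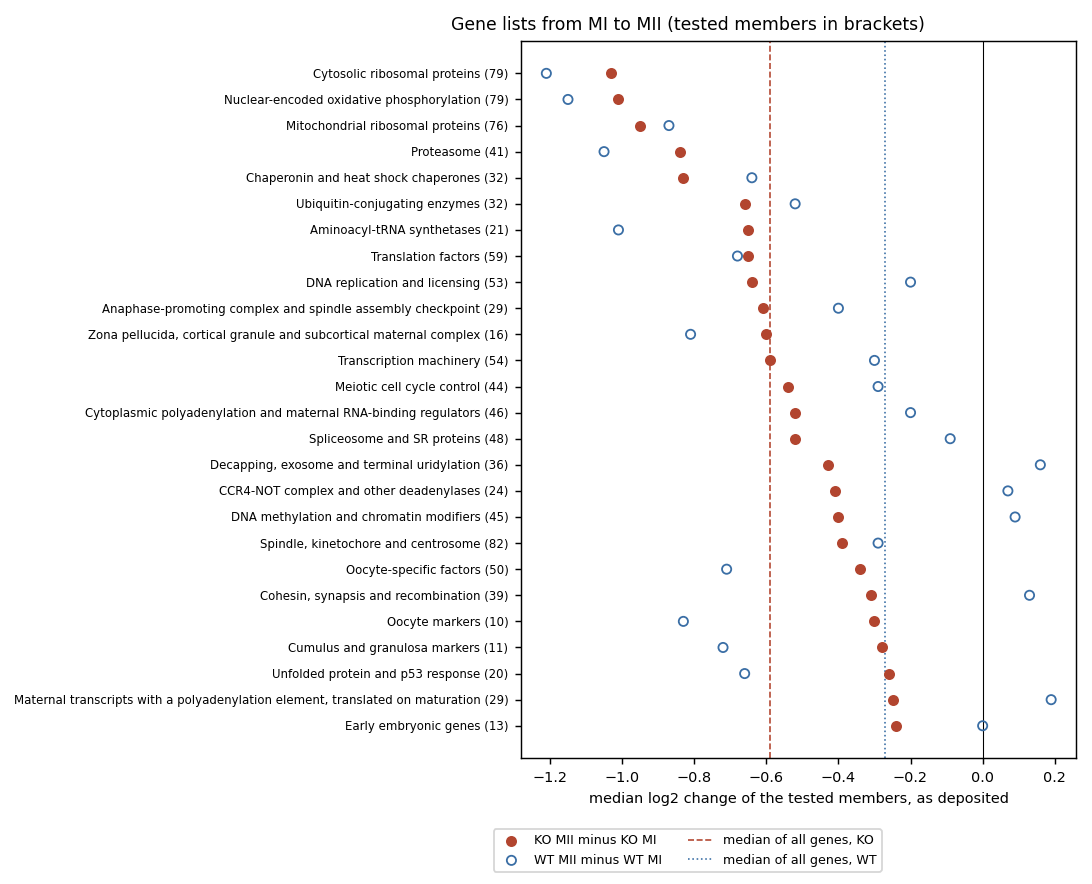
Median log2 change of each list with at least 10 tested genes, as deposited; filled red points are KO MII minus KO MI, open blue points WT MII minus WT MI, and the dashed and dotted lines are the medians of all genes, −0.59 in KO and −0.27 in WT. Ribosomal protein and oxidative phosphorylation lists have the lowest KO medians, −1.03 and −1.01.

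Transcripts of the division apparatus split. Cdk1, the kinase whose complex with cyclin B drives meiosis, had 46.21 and 34.25 FPKM in KO MII libraries, against 174.2 and 183.73 FPKM in KO MI libraries (−2.14 ± 0.29, adjusted p = 0.00181, and −1.56 after scaling). Tacc3, a spindle protein that stabilises microtubules, stood at 585.36 and 521.07 FPKM in KO MII libraries and at 1664.91 and 1842.51 FPKM in KO MI libraries (−1.66 ± 0.11, adjusted p = 2.1e-05). Nusap1, which bundles spindle microtubules, had 140.21 and 138.44 FPKM in KO MII libraries, against 534.27 and 547.14 FPKM in KO MI libraries (−1.95, adjusted p = 0.00015). All 3 kept their call after scaling. In contrast, the cyclin partner Ccnb1 remained at 3025.08 and 2934.05 FPKM in KO MII libraries, against 3218.05 and 3295.12 FPKM in KO MI libraries (−0.13, adjusted p = 0.461); after scaling its change was 0.45 (adjusted p = 0.031), so its direction depends on the scale. Across 82 spindle, kinetochore and centrosome genes 14 fell (17.1%, against 7.18% of all tested genes) and none rose. Their median was −0.39, above the −0.59 of all genes, and 4 fell and 2 rose after scaling. Calls depend on level, and neither this list nor the next ones were set against genes of the same level. Of 44 genes of meiotic cell cycle control 5 fell (11.4%) and 1, Pttg1, rose (1 fell and 3 rose after scaling). Of 29 genes of the anaphase-promoting complex and its checkpoint 3 fell (10.3%), and after scaling none fell and 1 rose. The kinases Plk1 and Aurka each fell by 1.05 (adjusted p = 0.00659 and 0.00767), and neither passed after scaling. Of 53 replication genes 9 fell (17.0%, median −0.64), and after scaling none fell and 1 rose. Of 54 genes of the transcription machinery 13 fell (24.1%), and 1 fell after scaling. Polr2g, a subunit of RNA polymerase II, was the one with the lowest adjusted p: it had 300.46 and 261.58 FPKM in KO MII libraries, against 1003.69 and 1094.57 FPKM in KO MI libraries (−1.90, adjusted p = 2.1e-05, and −1.32 after scaling).

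Among the egg coat and the subcortical maternal complex, 12 of 16 tested genes fell and none rose, with a median of −0.60 against −0.59 over all genes. After scaling 2 fell and 2 rose (median −0.02). Zp3, the zona pellucida glycoprotein, had 9657.37 and 9462.74 FPKM in KO MII libraries, against 17976.49 and 18339.38 FPKM in KO MI libraries (−0.93 ± 0.04, adjusted p = 1.5e-06, and −0.34 after scaling). Tle6, a member of the subcortical complex, fell by 0.85 (adjusted p = 1.7e-05). The oocyte-specific list moved both ways, with 17 of 50 lower (34.0%) and 9 higher as deposited (median −0.34). Of all tested genes 7.18% fell and 0.163% rose. After scaling 4 of the 50 were lower and 17 higher (median 0.24), against 0.677% and 0.84% of all tested genes. This list was not set against genes of the same level either. Oas1c, an oocyte member of the oligoadenylate synthetase family, fell by 1.39 (adjusted p = 2.1e-05), and the F-box gene Fbxw15 by 1.16 (adjusted p = 2.9e-05). Gdf9, the growth factor that oocytes send to their follicle cells, had 7599.82 and 7600.36 FPKM in KO MII libraries, against 11524.82 and 12239.59 FPKM in KO MI libraries (−0.64, adjusted p = 0.00011), but its change was −0.06 after scaling (adjusted p = 0.831).

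The machinery that removes tails and the machinery that lengthens them were counted next. Of 24 genes of CCR4-NOT and other deadenylases none fell and 1 rose. That gene was Btg4, the adapter that brings CCR4-NOT to maternal transcripts, with 8494.32 and 8474.41 FPKM in KO MII libraries, against 7093.6 and 7333.14 FPKM in KO MI libraries (0.23 ± 0.05, adjusted p = 0.0119). Cnot7, another nuclease subunit, had 411.62 and 444.83 FPKM in KO MII libraries, against 518.16 and 560.27 FPKM in KO MI libraries, which did not pass (−0.33, adjusted p = 0.219). Among 36 genes of decapping, the exosome and terminal uridylation none was called by limma on either scale in KO. In WT 7 of them rose and 2 fell, against 5.68% and 16.4% of all tested genes. The test of the difference was lower in KO for 5 of the 36 as deposited (3.71% of all tested genes) and for 1 after scaling (1.73%). Of 46 genes of cytoplasmic polyadenylation and maternal RNA-binding proteins 8 fell (17.4%, against 7.18% of all tested genes). After scaling none fell and 1 rose. The median of the list was −0.52, against −0.59 over all genes (0.04 and −0.08 after scaling), so its typical member did not fall further. Calls depend on level, and the list was not set against genes of the same level. Among the 8 was Pabpc1l, the poly(A)-binding protein of oocytes, which fell by 1.36 (adjusted p = 0.00129) and did not pass after scaling (adjusted p = 0.0632). On other lists the share that fell was from 4.44% to 12.5%, on either side of the 7.18% of all tested genes: 2 of 39 genes of cohesin and recombination fell, 5 of 48 of splicing, 2 of 45 of DNA methylation and chromatin, 4 of 32 ubiquitin-conjugating enzymes, 1 of 20 of the unfolded protein and p53 responses and 1 of 13 early embryonic genes. After scaling none of these fell, and 3 splicing genes, 3 chromatin genes and 2 ubiquitin-conjugating enzymes rose.

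The spread of the changes over genes was smaller in KO than in WT. After scaling, 85.9% of genes lay within 1 log2 unit of no change in KO and 54.4% in WT, and the SD of the change over genes was 0.72 in KO and 1.43 in WT. The WT MII libraries also had more zeros and more spread. Tested genes at 0 numbered 887 and 981 in KO MII libraries, against 3059 and 3100 in WT MII libraries, and replicates correlated at 0.92 in KO MII and 0.865 in WT MII, with 13 and 105 genes at 0 in one library and above 20 FPKM in the other. Their part in the wider WT change was not tested. WT had 663 increases (5.68%) and 1911 decreases (16.4%) from MI to MII. These calls use the spread over all 12 libraries. With the compared groups fitted alone, WT had 0 increases and 0 decreases, and KO had 26 and 1404. KO and WT changes were weakly related across the 11667 genes (Pearson's r = 0.264, Spearman's rho = 0.309, with no library in common; genes are not independent and levels are shared). Of the 838 genes that fell in KO, 503 (60.0%) fell in WT over the same step and 55 (6.56%) rose, against 16.4% and 5.68% of all tested genes. The 503 are 26.3% of the WT decreases. Of the same 838, 555 (66.2%) fell in WT over the step before, from GV to MI, against 21.7% of all tested genes. After scaling, 68 of the 79 KO decreases (86.1%) fell in WT from MI to MII (14.9% of all) and 36 (45.6%) fell from GV to MI (7.62%). Of the 98 KO increases on that scale, 44 (44.9%) rose and 28 (28.6%) fell in WT from MI to MII (8.97% and 14.9% of all), and 89 (90.8%) rose in WT from GV to MI (6.99% of all). Genes called in KO are mostly abundant ones, and these shares were not set against genes of the same level.

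**Figure D4:**
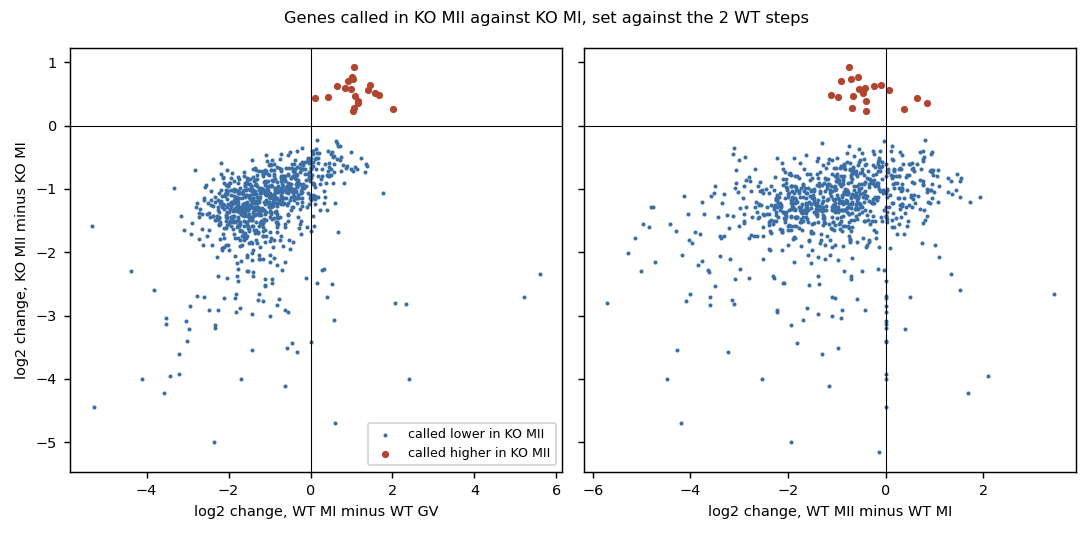
Log2 change in KO from MI to MII (vertical axis) against the log2 change in WT from GV to MI (left) and from MI to MII (right), for the 838 genes called lower (blue) and the 19 called higher (red) in KO. All 19 red points lie right of 0 in the left panel, and 13 were called lower in WT in the right panel; points in a line at 0 in the right panel are genes at 0 in the 4 WT libraries.

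The difference between the KO and WT changes passed for 328 genes where KO was above WT (2.81%) and for 433 where it was below (3.71%). After scaling the counts were 526 (4.51%) and 202 (1.73%). Of the 328, 15 rose, 103 fell and 210 were not called in KO from MI to MII, at a median of −0.72, whereas 325 fell in WT, at a median of −2.79. Ooep, a protein of the subcortical maternal complex, had 2166.84 and 2297.36 FPKM in KO MII libraries, against 3019.75 and 3071.87 FPKM in KO MI libraries. In WT it had 210.29 and 238.95 FPKM at MII, against 2093.22 and 1857.58 FPKM at MI. The change was −0.45 in KO and −3.13 in WT on the log2 scale, a difference of 2.68 (adjusted p = 1.2e-06). After scaling the KO change was 0.13 and the difference 3.05. Npm2, a histone chaperone that remodels chromatin after fertilisation, showed the same contrast: the change was −0.55 in KO (adjusted p = 0.0348, and 0.04 after scaling) and −3.00 in WT (difference 2.45, adjusted p = 5e-05). Tacc3 fell in both, by 1.66 in KO and by 4.30 in WT (difference 2.64, adjusted p = 8e-06). Tle6 differed by 1.25 (adjusted p = 5.8e-06) and the growth factor Bmp15 by 1.03 (adjusted p = 0.00023), whose KO change was −0.28 as deposited and 0.30 after scaling. Cdk1 differed by 1.63 (adjusted p = 0.0412, called in 10 of 23 alternative settings and lost without either KO MI or either KO MII library, at up to 0.158), with 2.16 and 3.67 FPKM left in WT MII libraries. On the list of oocyte-specific factors 22 of 50 were above WT and 6 below (27 and 0 after scaling), and on the egg coat and subcortical list 8 of 16 were above and 4 below (9 and 1 after scaling).

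Of the 433 genes whose KO change was below the WT change, 1 rose, 142 fell and 290 were not called in KO, while 318 rose in WT. Of the 29 maternal transcripts translated on maturation, the KO change was above the WT change for 5 and below it for 6 (5 and 3 after scaling). Over all tested genes the shares were 2.81% and 3.71% (4.51% and 1.73% after scaling). Plat, the tissue plasminogen activator and a long-studied CPE transcript of mouse oocytes, had 5335.65 and 5287.65 FPKM in KO MII libraries, against 4943.96 and 4970.38 FPKM in KO MI libraries (0.10, adjusted p = 0.486, and 0.68 after scaling, where it passed at 0.0006). In WT it had 4090.08 and 4503.83 FPKM at MII, against 2349.89 and 2435.18 FPKM at MI (0.84). The KO change was thus 0.74 below the WT change on the log2 scale (difference −0.74, adjusted p = 0.0021). Bub1b, a checkpoint kinase relative, differed by −0.78 (adjusted p = 0.00521): it had 1565.01 and 1562.99 FPKM in KO MII libraries, against 1315.74 and 1385.61 FPKM in KO MI libraries (0.21, adjusted p = 0.202, and 0.79 after scaling, where it passed at 0.00123), and in WT 1729.03 and 1803.84 FPKM at MII, against 959.01 and 821.81 FPKM at MI. Wee2, the oocyte kinase that inhibits CDK1, differed by −1.46 (adjusted p = 0.0107), Cnot7 by −0.89 (adjusted p = 0.0281) and Ccnb1 by −0.54 (adjusted p = 0.0296). After scaling the difference passed for Plat and Wee2 (adjusted p = 0.043 and 0.0432) and not for Bub1b, Cnot7 and Ccnb1 (adjusted p = 0.0846, 0.154 and 0.476). Over the whole list of 29 maternal transcripts translated on maturation, 1 rose and 6 fell in KO (20.7% fell, against 7.18% of all tested genes). The median was −0.25, and after scaling 7 rose and 2 fell (median 0.32). In WT 8 rose and 9 fell (median 0.19), against 5.68% and 16.4% of all tested genes. The list was not set against genes of the same level.

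**Figure D5:**
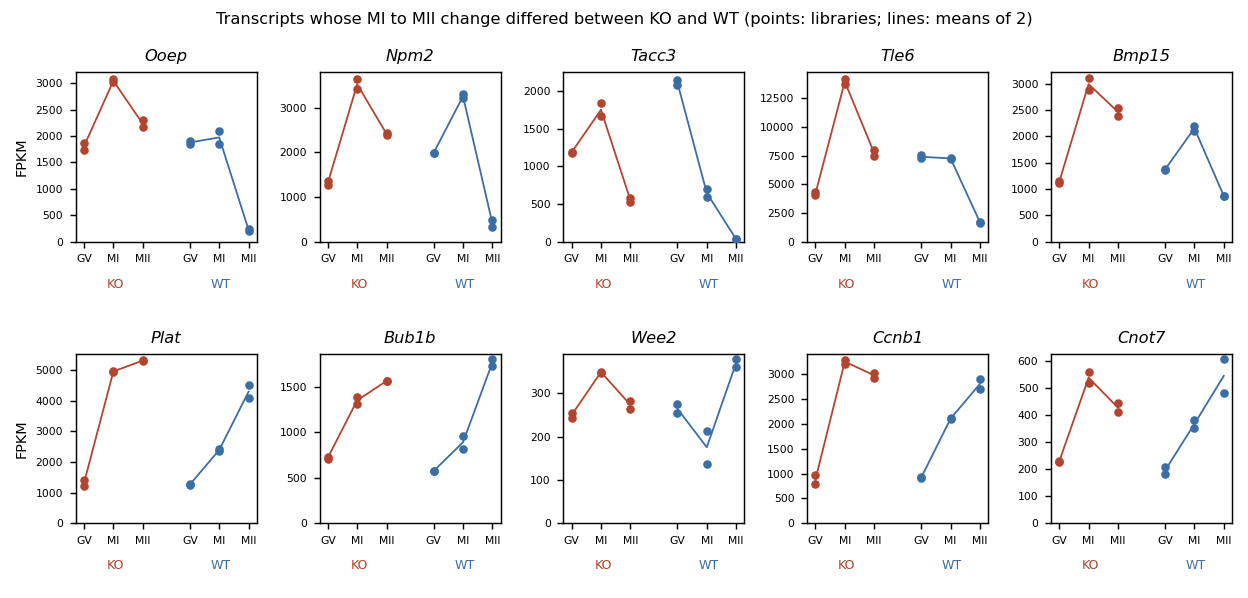
FPKM of 10 genes whose MI to MII change differed between KO (red) and WT (blue) as deposited; points are libraries, lines join the means of 2, stages run from GV to MII. In the upper row the WT means at MII are far lower than at MI, such as 210.29 and 238.95 FPKM for Ooep, and in the lower row the WT means are higher at MII than at MI while none of the KO changes was called.

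The 3′ ends printed above were counted over all genes. Among the 8143 tested genes with an annotated hexamer, 20.7% had a CPE, and among the 1560 of them at 100 FPKM or more in the KO libraries 25.3% did. For the genes called higher as deposited it was 6 of 15, for those called higher after scaling 28 of 70, for those called lower as deposited 77 of 592 (13.0%) and after scaling 5 of 56 (8.9%). Tcl1, Obox2, H1foo and Bcl2l10 rose and carry the element, and Dppa3 and Pttg1 rose without it in this window. Gdf9 carries it and fell as deposited (−0.64), but its change was −0.06 after scaling (limma adjusted p = 0.831). Of the 10 largest decreases 5 had a hexamer, among them Eef2, Rps26 and Arl2, a small GTPase that helps tubulin folding (−1.97, adjusted p = 0.00036), and none of these 5 held a CPE, too few to set against the 13.0%. The median change in KO was −0.36 for 1683 genes with a CPE and −0.63 for 6460 without (0.16 and −0.10 after scaling). In WT the medians were 0.08 and −0.34. Length of the 3′ untranslated region went the same way: the median KO change was −0.79 for the genes with the shortest regions (up to 449 bases) and −0.38 for those with the longest (over 2058 bases). Levels differed between these classes too, with medians of 33.4 and 12.6 FPKM in KO MI, and the element, length and level were not separated. A match is letters in an annotated end and not a site shown to be used.

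Some transcripts present at MI were at 0 at MII. In KO 209 genes were listed at 0 in both MII libraries and above 0 in both MI libraries, and 11 the other way round, but only 13 of the 209 and none of the 11 had a mean of at least 10 FPKM where they were present. Nupr1, a small stress-induced chromatin protein, was at 0 in both KO MII libraries, against 35.91 and 33.63 FPKM in KO MI libraries, and in WT it had 46.99 and 65.22 FPKM at MII, against 50.34 and 73.2 FPKM at MI (difference −5.03 on the log2 scale, adjusted p = 0.00204). The size of this difference depends on the pseudocount. Gja1, which encodes the gap junction protein connexin 43 of cumulus cells, was at 0 in both KO MII libraries, against 17.5 and 15.31 FPKM in KO MI libraries. Of 11 tested markers on the list of cumulus and granulosa cells, which does not hold Gja1, 2 fell (18.2%, against 7.18% of all tested genes). The other 9 were not called, and the list median was −0.28, against −0.59 over all genes. After scaling none was called and 6 of the 11 changes were positive. The pair that fell as deposited was Ptx3, of the cumulus matrix, with 0.35 and 0 FPKM in KO MII libraries, against 11.15 and 3.71 FPKM in KO MI libraries, and Hsd17b1, a steroid enzyme, at 0 in both KO MII libraries, against 17.78 and 3.2 FPKM in KO MI libraries (adjusted p = 0.139 and 0.249 after scaling). All 16 markers of these cells summed to 87.4 and 127.2 FPKM in KO MII libraries, against 178.8 and 141.9 FPKM in KO MI libraries. Cyp19a1, which is also on the list of oocyte transcripts translated on maturation, made up most of each sum, and Foxl2, Areg and Ereg were at 0 in all 4. The share of somatic RNA in the changes of other genes was not tested. Markers of theca, stroma, endothelium and blood summed to 47.8 and 77.3 FPKM in KO MII libraries, against 77.8 and 82.1 FPKM in KO MI libraries, with 8 of 15 at 0 in all 4. Among KO MII libraries 13 genes were at 0 in one and above 20 FPKM in the other, and 9 among KO MI libraries, so a single 0 can be a failed measurement.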

How the data were processed

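Polysome-bound RNA was purified with RNeasy columns and 500 pg of cDNA, already amplified, went into each Tn5-based library, per the labels' protocols. Pre-amplification can distort low values. The submitters' processing notes name Cufflinks 2.2.1, TopHat2 2.0.11, Bowtie2 2.1.0, CASAVA 1.8 and the mm9 build, without saying what each did. The authors deposited FPKM per gene, and no read counts, so depth per library is unknown beyond the low-value steps, and no counting interval is given. The 12 single-library files equal the columns of the joint table.

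From these FPKM, log2(FPKM + 1) of genes with a mean of at least 1 FPKM was fitted with limma 3.58.1 in R 4.3.3: 6 group means over 12 libraries, empirical Bayes with a variance trend, Benjamini-Hochberg adjustment over all 11667 genes, two-sided, threshold 0.05. The KO and WT changes and their difference (interaction) are contrasts of that fit. Median scaling divided each library by its median ratio to the geometric mean over genes with a mean of at least 10 FPKM and no 0. The scripts were tested on simulated data. The genes named are the 10 largest increases and decreases called on both scales with no overlap of libraries, the highest genes at 0 in one stage, up to 4 called members of each of 28 lists, the extreme interactions and 16 fixed genes, and the text gives a part of them. Obox2, H1foo and Bcl2l10 are named as members of the 19 increases. The list of mitochondrially encoded genes had no gene in the table. Members and lists were chosen with earlier results of these data known. Alternatives were another pseudocount, other filters, TPM, quantile and cyclic loess normalization, no variance trend, fewer groups, a replicate block and leaving out each library.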

Additional observations from a re-analysis of the deposited data

Results flagged for a closer look

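In these results the MI to MII change differed between KO and WT by the interaction test, on the log2 scale as deposited. The difference passed for 328 genes with KO above WT and for 433 with KO below. Among the increases in KO it was 1.67 for Tcl1b4, 1.32 for Tcl1, 1.46 for Tcl1b3, 1.61 for Dppa3, 0.74 for Ndufa4, 0.87 for Swi5, 1.02 for Pttg1, 1.12 for Omt2b, 0.99 for Tcl1b1 and 0.63 for Btg4. Among transcripts that fell in KO but fell further in WT it was 1.63 for Cdk1, 1.60 for Rps9, 2.64 for Tacc3, 0.91 for Ccno, 0.76 for Zp3, 1.25 for Tle6, 1.51 for Oas1c, 1.08 for Fbxw15, 0.42 for Zfp57, 1.03 for Bmp15, 2.68 for Ooep and 2.45 for Npm2. The KO changes of Bmp15, Ooep and Npm2 were above 0 after median scaling. Transcripts that fell in KO and had a higher value of the change in WT were Serf1 (−2.11), Bola2 (−1.50), Nupr1 (−5.03), Npdc1 (−5.92), Mrps16 (−1.84), Mrpl34 (−1.50), Polr2g (−1.02), Slc2a1 (−6.06) and Ehmt2 (−6.11). In the same direction, with no call in KO, were Cnot7 (−0.89), Ccnb1 (−0.54), Plat (−0.74), Wee2 (−1.46), Bub1b (−0.78) and Chst5 (−6.47). Npdc1, Slc2a1, Ehmt2 and Chst5 were at 0 in at least 1 library of both KO MII and WT MI, so their sizes depend on the pseudocount. Nupr1 was at 0 in both KO MII libraries, so its size depends on the pseudocount too. After median scaling the difference did not pass for Serf1 (adjusted p = 0.0616), Npdc1 (0.0518), Mrpl34 (0.129), Cnot7 (0.154), Ccnb1 (0.476) and Bub1b (0.0846). Of 23 alternative settings, 5 kept the call of Mrpl34, 9 that of Zfp57 and of Ccnb1, 10 that of Cdk1, Cnot7 and Chst5, 12 that of Serf1 and 13 that of Npdc1. Leaving out 1 WT MI library moved Mrpl34 to −2.02 or −0.98.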

How the results depend on the processing

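The counts of KO changes depended on scaling and on how the spread was estimated. Against 19 increases and 838 decreases as deposited, TPM gave 60 and 118, cyclic loess 95 and 83, quantile normalization 65 and 80, median scaling 98 and 79, and median scaling with zeros kept 110 and 66. Without the variance trend there were 0 and 3 (56 and 2440 at an unadjusted p under 0.05 with the trend). With no filter 31 genes rose. Decreases numbered 1587 with the KO libraries alone, 1404 with the compared groups alone and 1573 without both WT MII libraries, the last and the setting with zeros kept being chosen after seeing the data. Leaving out 1 library gave 8 to 26 increases (8 without KO MI replicate 1) and 198 to 1563 decreases. In WT, increases were 1060 with TPM, 1344 with cyclic loess, 1289 with zeros kept, 1047 with median scaling, 1040 with quantile normalization and 0 with the compared groups alone, and decreases were 0 with the compared groups alone and 1263 with quantile normalization; leaving out 1 library gave 496 to 652 and 1517 to 2013. The interaction had 186 genes above with the compared groups alone, 506 with zeros kept, 526 with median scaling and 100 without the trend, and 274 below with cyclic loess, 273 with zeros kept, 202 with median scaling, 80 without the trend and 134 with quantile normalization; leaving out 1 library gave 147 to 650 above and 169 to 575 below. Why the counts move was not tested.

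Changes of KO genes that turned positive, given for TPM, cyclic loess, zeros kept, median scaling and quantile normalization in that order, were 0.15, 0.36, 0.32, 0.28 and 0.33 for Cnot6l, 0.11, 0.29, 0.29, 0.25 and 0.31 for Cnot7, 0.32, 0.36, 0.50, 0.45 and 0.09 for Ccnb1, 0.16, 0.22, 0.35, 0.30 and 0.12 for Bmp15, and 0.09, 0.28, 0.27, 0.23 and 0.29 for Wee2. For Ooep they were 0.06, 0.18, 0.13 and 0.02 from cyclic loess on, and for Npm2 0.08 with zeros kept and 0.04 with median scaling. Replicate numbers only name libraries: same-numbered KO MII and KO MI libraries deviated with r = 0.055, and over all 15 pairs of groups r ran from −0.029 to 0.055. A replicate block gave 19 increases and 752 decreases in KO, 650 and 1899 in WT, and 308 and 405 for the interaction. FPKM without counts gives no depth per gene, which limits what can be said of genes near 0.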
